A study of Mus musculus with 8 samples.

Results

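The genes described here are 10 members of the ITAM and Fc receptor signalling system of myeloid cells, among 24421 genes in the deposited table. They were chosen by name and by role, not by their values: Oscar, Trem2, Tyrobp, Fcer1g, Fcgr1, Fcgr2b, Fcgr3, Fcgr4, Syk and Plcg2. All 10 passed the filter on low values that left 12194 genes for testing. RNA was sequenced from mouse bone marrow macrophages (BMMs), cells grown from marrow precursors, of 4 groups with 2 libraries each. Knockout (KO) cells came from Rbpj flox/flox mice carrying LysMcre, and were taken after 2 days with TNF at 40 ng/ml (KO TNF) or at day 0 without TNF (KO day 0). Wild-type (WT) control cells were taken at the same times (WT TNF and WT day 0). The age and strain of the mice, and whether the WT mice carried Cre, are not given in the labels. LysMcre acts in the myeloid lineage, so Rbpj is removed from the macrophages and from other myeloid cells. Cells cultured for those 2 days without TNF were not among the groups, so the effects of TNF and of time in culture cannot be told apart. The design states 2 independent experiments, but the labels do not state whether separate animals were used for the replicates. The p-values therefore measure only the spread between these libraries.

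An immunoreceptor tyrosine-based activation motif (ITAM) is a pair of tyrosines in the cytoplasmic tail of an adaptor or receptor. When a receptor is cross-linked, Src family kinases phosphorylate the pair, and the kinase Syk docks on it and activates phospholipase C gamma and calcium signalling. In macrophages this system drives uptake of antibody-coated particles. In osteoclast precursors it gives the costimulatory calcium signal that works together with RANK. In mice, loss of both adaptors, encoded by Tyrobp (DAP12) and Fcer1g (the FcR gamma chain), impairs osteoclast formation. OSCAR and the activating Fc gamma receptors have no ITAM of their own and pair with the FcR gamma chain, whereas TREM2 pairs with DAP12. The inhibitory receptor encoded by Fcgr2b carries an inhibitory motif (ITIM) instead.

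The motifs themselves are shown because they are the sites through which the adaptors and Fcgr2b signal. The sequences are coding sequence of GENCODE M21 on GRCm38, 5′ to 3′ on the gene's own strand. Capitals mark the codons of the tyrosine and of the leucine in each repeat of the ITAM, and of the isoleucine, tyrosine and leucine of the ITIM. The Tyrobp ITAM (codons 92 to 106) lies at chr7:30415670-30417382 on the plus strand and is split by an intron. The Fcer1g ITAM (codons 65 to 79) lies at chr1:171229889-171230072 on the minus strand and is also split by an intron. The Fcgr2b ITIM (codons 317 to 322) lies at chr1:170961071-170961088 on the minus strand within 1 exon.
Tyrobp ITAM: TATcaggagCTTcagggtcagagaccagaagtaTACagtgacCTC
Fcer1g ITAM: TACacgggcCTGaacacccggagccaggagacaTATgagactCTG
Fcgr2b ITIM: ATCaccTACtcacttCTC
The ITAM pattern was found in the translated coding sequence of 2 of the 10 members, Tyrobp and Fcer1g. It was found in 631 of 21562 protein-coding genes (2.93%), so the pattern alone does not define an ITAM. The ITIM pattern (serine, isoleucine, valine or leucine, any residue, tyrosine, any 2 residues, then leucine, valine or isoleucine) is shorter still. It was found in 6 of the 10 members, namely Fcgr1, Plcg2, Fcgr2b, Fcgr4, Fcer1g and Tyrobp, and in 10584 of the protein-coding genes (49.1%), so it does not mark out the inhibitory receptor.

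The promoters of Oscar, Fcgr1, Fcgr3 and Fcgr4 are shown because these genes had the largest log2 differences after TNF in KO cells. They are RefSeq sequences on GRCm38.p6, from 250 bases before to 50 bases after the annotated start, 5′ to 3′ on the gene's strand. RefSeq promoters were matched for 9 of the 10 members (11 promoters). Capitals mark matches, on either strand, to motifs chosen with the sequences in view: RBP-J (TGGGAA), NFAT (TGGAAA), PU.1 (GAGGAAG), MITF (TCACATG), and the ISRE and NF-kB consensus.
Oscar, chr7:3616108-3616407, minus strand: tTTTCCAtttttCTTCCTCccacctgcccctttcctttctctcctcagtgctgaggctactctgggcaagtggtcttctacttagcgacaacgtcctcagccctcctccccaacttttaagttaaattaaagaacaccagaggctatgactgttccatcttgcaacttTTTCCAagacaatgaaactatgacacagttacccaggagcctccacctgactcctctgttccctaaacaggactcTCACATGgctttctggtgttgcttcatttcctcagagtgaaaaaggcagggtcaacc
Fcgr1, chr3:96293920-96294219, minus strand: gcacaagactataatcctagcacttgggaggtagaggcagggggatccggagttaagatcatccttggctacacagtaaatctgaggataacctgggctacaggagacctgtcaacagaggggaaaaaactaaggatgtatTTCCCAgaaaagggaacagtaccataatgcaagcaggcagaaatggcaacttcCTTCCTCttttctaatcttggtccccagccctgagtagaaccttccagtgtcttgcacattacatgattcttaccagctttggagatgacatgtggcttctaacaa
Fcgr3, chr1:171059354-171059653, minus strand: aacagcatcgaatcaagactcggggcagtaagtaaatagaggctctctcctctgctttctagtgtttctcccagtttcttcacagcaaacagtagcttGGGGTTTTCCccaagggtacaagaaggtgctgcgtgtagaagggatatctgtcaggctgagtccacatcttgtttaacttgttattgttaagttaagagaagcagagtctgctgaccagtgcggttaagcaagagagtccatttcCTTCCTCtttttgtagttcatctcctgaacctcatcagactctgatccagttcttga
Fcgr4, chr1:171018676-171018975, plus strand: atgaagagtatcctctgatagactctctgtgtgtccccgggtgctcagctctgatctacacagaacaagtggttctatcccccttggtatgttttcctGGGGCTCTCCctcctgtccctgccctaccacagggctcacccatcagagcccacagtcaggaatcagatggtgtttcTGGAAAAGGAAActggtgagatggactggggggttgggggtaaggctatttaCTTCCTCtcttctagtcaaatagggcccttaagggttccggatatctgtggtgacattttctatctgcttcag
In the Oscar window, NFAT letters begin 249 and 82 bases before the start, PU.1 letters 238 bases before it, and MITF letters end at the base before the start. In the Fcgr1 window, the RBP-J letters begin 109 bases before the start, with PU.1 letters beginning 56 bases before it. The Fcgr3 window holds NF-kB letters from 152 bases before the start and PU.1 letters ending at the base before it. The Fcgr4 window holds NF-kB letters from 152, NFAT letters from 75 overlapping ISRE letters from 73, and PU.1 letters from 23 bases before the start. Among the other members' windows, Plcg2 held RBP-J letters and Trem2 held PU.1 letters. Of 32851 promoters of the same length, 25.6% held the RBP-J letters, 21.4% NFAT, 13.6% PU.1, 3.99% MITF, 3.44% ISRE and 4.51% NF-kB. A match is a description of letters and not a bound site.

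The libraries held from 9855859 to 35653203 reads in genes. The smallest was KO TNF replicate 1. Rbpj, the deleted gene, had 30.0 and 21.4 CPM in KO TNF cells and 38.9 and 31.8 CPM in KO day 0 cells, against 226 and 178 CPM in WT TNF cells and 215 and 216 CPM in WT day 0 cells (replicates 1 and 2). Macrophage markers were present throughout, with 7 markers summing to between 4688 and 8878 CPM in every library. By limma 0 of the 7 were called in any comparison without the replicate block described below, and with it 3 fell after TNF in KO cells, 1 rose in WT cells and 1 was lower in KO TNF than in WT TNF. Osteoclast markers summed to 17584 and 42647 CPM in KO TNF cells and 54.1 and 112 CPM in KO day 0 cells, and to 6275 and 4754 CPM in WT TNF cells and 44.6 and 89.6 CPM in WT day 0 cells. By limma, 7 of 7 osteoclast markers rose after TNF in KO cells and 5 of 7 in WT cells (7 and 6 with the block). In KO TNF against WT TNF 0 of 7 were called without the block, and 7 of 7 were higher with it. Neutrophil markers moved the other way, with 60.2 and 65.0 CPM in KO TNF cells and 285 and 1049 CPM in KO day 0 cells, and 116 and 219 CPM in WT TNF cells and 181 and 888 CPM in WT day 0 cells. The mast cell, B lymphoid and T and NK lists summed to at most 8.97, 10.4 and 8.31 CPM. The erythroid and megakaryocyte list ranged from 32.8 to 368 CPM, with Hba-a1 and Hbb-bs at 0 in every library, and the dendritic list from 2.55 to 32.9 CPM. The stromal list separated the replicate numbers, with 114 to 174 CPM in replicate 1 and 3.78 to 27.4 CPM in replicate 2. Several of these sums moved with TNF, as several of the members below did. Besides the osteoclast sums, the neutrophil sums fell within each replicate, but overlapped between the WT groups. The erythroid and megakaryocyte sums were 158 and 32.8 CPM in KO TNF and 368 and 246 CPM in KO day 0 cells. In WT cells they were 163 and 65.1 CPM after TNF and 270 and 294 CPM at day 0. The B lymphoid sums were lower after TNF in KO cells without overlap. The T and NK and stromal sums were higher after TNF within each replicate. The part of these cell types in the results was not tested. In bulk RNA, fewer cells of a type and less RNA per cell cannot be told apart.

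Ordered by level per kilobase of exon, the adaptors were the most abundant members in every group. This order depends on the merged exon length, which ran from 667 bases for Tyrobp to 9362 for Syk. By mean CPM, Syk exceeded Tyrobp in KO TNF (695 against 519 CPM) and WT TNF (677 against 454 CPM). At day 0 Syk was below Tyrobp in KO (379 against 580 CPM) and WT cells (298 against 451 CPM). Mean Tyrobp ranked first in all 4 groups, at 778 ± 244 CPM per kb in KO TNF, 869 ± 225 in KO day 0, 681 ± 126 in WT TNF and 675 ± 158 in WT day 0 (SD, n = 2 each). Mean Fcer1g ranked second, at 409 ± 85.0, 754 ± 174, 630 ± 195 and 593 ± 74.1 CPM per kb in the same order of groups. The libraries of the 2 adaptors overlapped in level per kilobase in KO day 0, WT TNF and WT day 0, and did not overlap in KO TNF. Fcgr3 came next in KO day 0, WT TNF and WT day 0, at 265 ± 60.8, 141 ± 28.3 and 300 ± 77.7 CPM per kb. In KO TNF, Fcgr3 was at 56.0 ± 0.36 CPM per kb and stood behind Syk at 74.2 ± 4.66 and Oscar at 73.3 ± 79.4 CPM per kb. The SD of Oscar there exceeds its mean, so its place among the neighbours is not resolved. In KO day 0, WT TNF and WT day 0, Oscar was the lowest of the 10 members, at 0.101, 3.27 and 0.010 CPM per kb. The lowest member in KO TNF was Fcgr1, at 2.15 ± 0.21 CPM per kb.

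**Figure D1:**
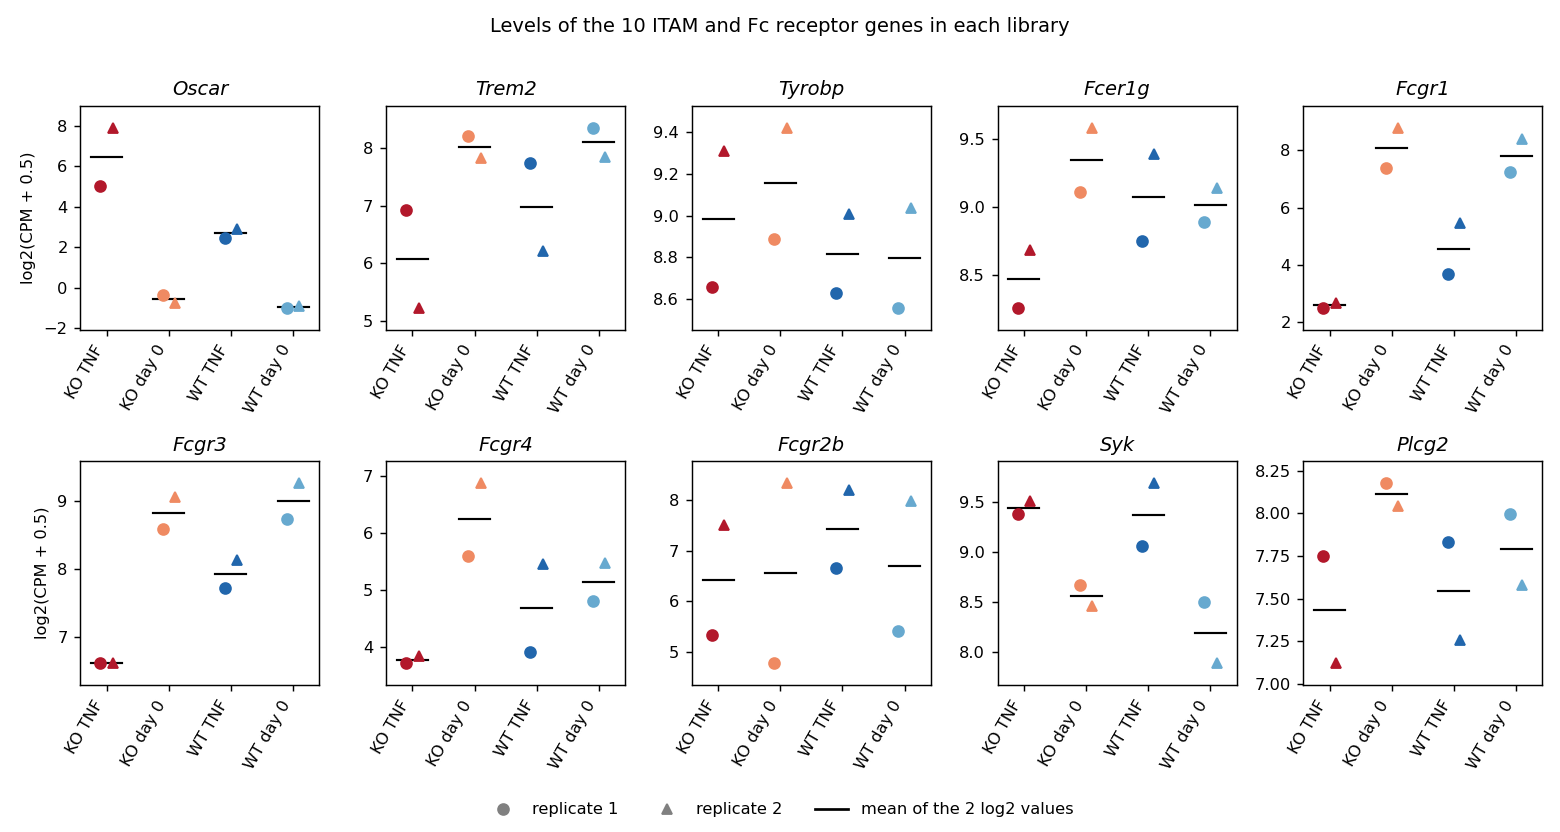
Level of each of the 10 genes in each library, as log2(CPM + 0.5) on the vertical axis, for KO TNF, KO day 0, WT TNF and WT day 0. Circles are replicate 1, triangles replicate 2 and bars the mean of both log2 values; vertical scales differ between genes. Oscar lies highest and Fcgr1 and Fcgr3 lie lowest in KO TNF, while the replicates of Fcgr2b are far apart in every group.

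The 4 comparisons and the difference between the TNF responses were tested with limma on log2(CPM + 0.5), adjusted over all 12194 genes. Groups of 2 libraries can lie apart without any true difference. Statements that groups do or do not overlap describe the values only, and the share of all genes without overlap is not given. A gene is called here when its adjusted p is under 0.05, and shares of all genes count calls. No such share is given at an unadjusted p under 0.05, so limma counts of members at it are not set against all genes. Of 75 further pathway genes described below, 25 reached it without the replicate block for TNF in WT cells and 13 for KO TNF against WT TNF. At day 0, 8 did so without the block and 15 with it, and for the difference between the responses 11 and 28. After TNF in KO cells, Oscar rose and Fcgr1 and Fcgr3 fell, so that 3 of the 10 members were called (5.1% of all genes tested, 3.09% higher and 2.01% lower). Replicate number was shared across groups, and with it as a block in the fit 7 of 10 were called: Oscar rose, and Fcgr1, Fcgr3, Fcgr4, Trem2, Fcer1g and Plcg2 fell (25.9% of all genes, 12.2% higher and 13.7% lower). After TNF in WT cells, 0 of 10 were called without the block (4 at an unadjusted p under 0.05, 0 by edgeR and 3 by DESeq2, which called 0.492% and 7.17% of all genes; by limma 1.18% of all genes were called, 0.812% higher and 0.369% lower). With the block 3 were called, Oscar higher and Fcgr1 and Fcgr3 lower (10.3% of all genes, 5.54% higher and 4.71% lower). The median member changed by -0.78 on the log2 scale in KO cells and -0.11 in WT cells, beside medians of -0.10 and -0.12 over all genes. Leaving out 1 library, with or without the block, these medians ranged from -1.43 (without KO day 0 replicate 1) to -0.67 in KO cells and from -0.39 (without WT day 0 replicate 1) to 0.26 (without WT TNF replicate 1) in WT cells, so that the WT median has no settled sign. Median-ratio rescaling moved the WT median of all genes to -0.01 and left the members' directions and calls as they were.

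Between genotypes, KO TNF against WT TNF gave 0 of 10 called without the block (3 at an unadjusted p under 0.05, 0 by edgeR and 2 by DESeq2, which called 0% and 5.06% of all genes; by limma 0.0082% of all genes were called, 0.0082% higher and 0% lower). With the block 3 were called, Oscar higher and Fcgr1 and Fcgr3 lower in KO TNF (9.28% of all genes, 5.53% higher and 3.75% lower). At day 0, KO against WT gave 0 of 10 without the block (0 at an unadjusted p under 0.05; 0% of all genes) and 0 of 10 with it (1 at an unadjusted p under 0.05; 0.0082% of all genes, 0% higher and 0.0082% lower). The difference between the TNF responses (KO minus WT) was called for 0 of 10 members without the block (2 at an unadjusted p under 0.05; 0% of all genes) and 0 of 10 with it (5 at an unadjusted p under 0.05; 0% of all genes). By edgeR and DESeq2 the day 0 comparison and this difference were also called for 0 of 10, where edgeR called 0% of all genes in both and DESeq2 0.197% and 0.64%. A different TNF response in KO and WT cells was therefore not called for any member with all libraries. With the block and without KO TNF replicate 1, the library with the fewest reads, 4 were called (2.94% of all genes), Oscar higher and Fcgr1, Fcgr3 and Fcgr4 lower, at limma adjusted p of 0.0261, 0.0261, 0.0496 and 0.0441. KO TNF is a single library in that fit and is assumed to vary like the other groups, and the other 7 fits with the block that leave out a library called 0. For Oscar the difference between responses also depends on the 0.5 CPM added at day 0: it was 3.37 by limma, against 1.47 by edgeR, 0.65 by edgeR with the block and 1.15 by DESeq2. The difference was negative for 9 of the 10 members with all libraries, Oscar being the exception. The median member differed by -0.75 after TNF, 0.33 at day 0 and -0.84 for the difference between responses, beside 0.02, 0.01 and 0.01 over all genes. Leaving out 1 library, with or without the block, moved them to between -0.91 (without KO TNF replicate 1) and -0.26 (without WT TNF replicate 2) after TNF, between 0.099 (without KO day 0 replicate 2) and 0.45 at day 0, and between -1.08 and -0.41 (without KO day 0 replicate 1 and 2) for the difference. The comparisons share groups and are not independent of each other.

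**Figure D2:**
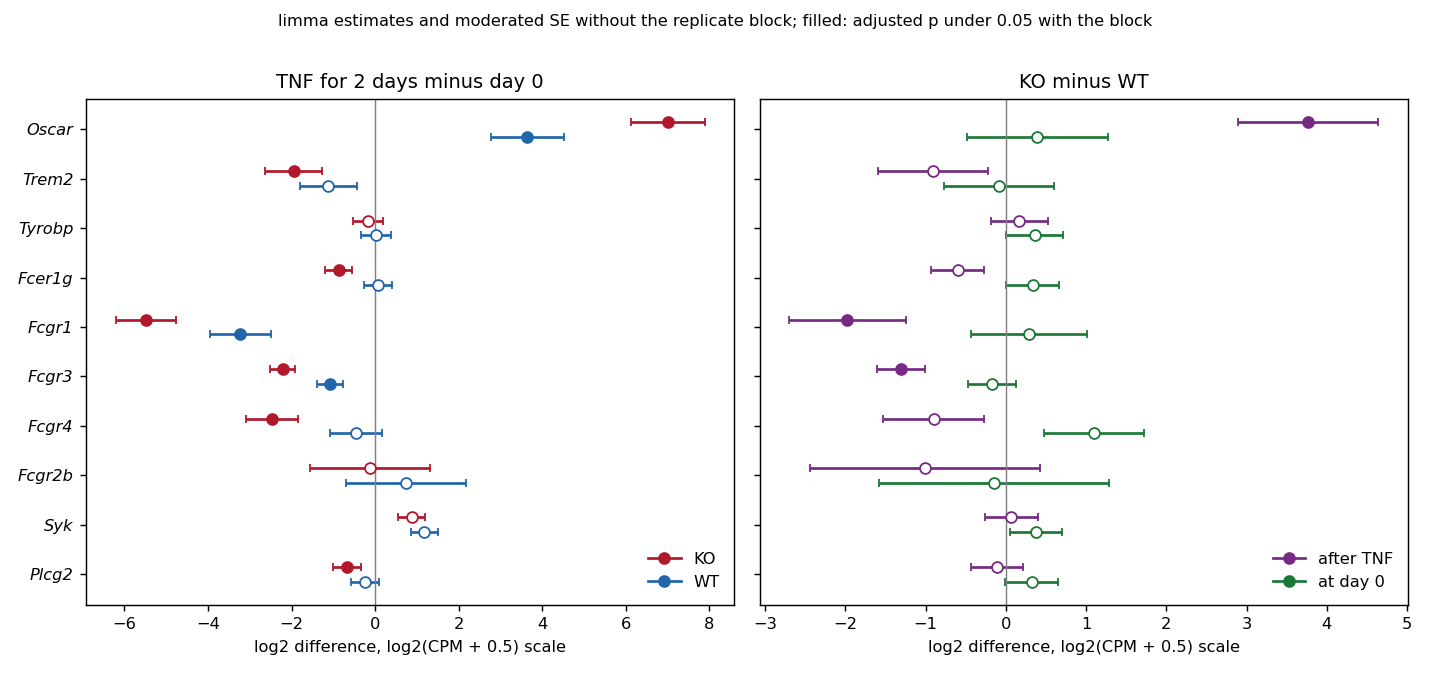
Log2 difference of each gene on the log2(CPM + 0.5) scale, for TNF against day 0 in KO and WT cells (left) and for KO against WT after TNF and at day 0 (right). Points are limma estimates, bars their moderated standard error without the replicate block, and filled points have an adjusted p under 0.05 with the block. Oscar is the only gene with filled points to the right of 0.

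Among the receptors that signal through an adaptor, Oscar changed most. Oscar, the osteoclast-associated receptor for collagen, pairs with the FcR gamma chain and lies at chr7:3609813-3616157 (GRCm38, minus strand). It had 31.7 and 239 CPM in KO TNF cells, against 0.286 and 0.0888 CPM in KO day 0 cells. In WT cells it had 4.99 and 7.08 CPM after TNF, against 0 and 0.0371 CPM at day 0. No groups overlapped, and the second KO TNF library held most of the Oscar reads of the whole series. Oscar rose after TNF in KO cells by 7.01 ± 0.88 on the log2 scale (limma adjusted p = 0.0111; 0.00205 with the block). In WT cells the difference was 3.64 ± 0.88 (limma adjusted p = 0.135; 0.0317 with the block, with 3 of 10 alternatives calling it, at 4.82e-05 to 0.239).

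Day 0 held very few Oscar reads, 10 in both KO libraries together and 1 in both WT libraries, so folds on counts are given with exact 95% intervals that cover counting error only. The ratio of summed reads, scaled by depth, was 849 (461 to 1772) for KO TNF against KO day 0. For WT TNF against WT day 0 it was 317 (56.5 to 12549). Oscar was 28.9 times (25.9 to 32.3) higher in KO TNF than in WT TNF by this ratio, with 4847 and 345 reads. That ratio varied between replicates, at 6.34 in replicate 1 and 33.8 in replicate 2. On the log2 scale the genotype difference after TNF was 3.77 ± 0.88 (limma adjusted p = 0.194; 0.0346 with the block, and 0.000532 to 0.547 over 10 alternatives). With the block, this call was lost on leaving out KO TNF replicate 2 (adjusted p = 0.111), KO day 0 replicate 1 (0.051) or 2 (0.0505), WT TNF replicate 1 (0.0951) or 2 (0.238), or WT day 0 replicate 1 (0.0521) or 2 (0.0515), and the WT response was lost without WT TNF replicate 1 (0.129) or 2 (0.173) or WT day 0 replicate 1 (0.0632) or 2 (0.205). Without the block, the limma call in KO cells was lost without KO day 0 replicate 1 (adjusted p = 0.054) or 2 (0.0799).

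Relative to its partner, Oscar per kilobase amounted to 4.91% and 27.6% of Fcer1g in KO TNF cells, against 0.549% and 0.499% in WT TNF cells. At day 0 it was at most 0.025% in either genotype. Trem2, a lipid-binding receptor that pairs with DAP12 (chr17:48346401-48354147, plus strand), went the other way. It had 121 and 36.9 CPM in KO TNF cells, against 295 and 227 CPM in KO day 0 cells. In WT cells Trem2 had 215 and 73.8 CPM after TNF, against 328 and 230.5 CPM at day 0. Levels after TNF lay below those at day 0 in both genotypes without overlap, and replicate 2 was the lower one in every group. The Trem2 difference in KO cells was -1.94 ± 0.68 (limma adjusted p = 0.178), and it fell with the block (adjusted p = 0.0112; 0.0112 to 0.231 over 10 alternatives). That call was lost without KO TNF replicate 2 (adjusted p = 0.0669) or KO day 0 replicate 2 (0.0868). The WT difference was -1.12 ± 0.68 (limma adjusted p = 0.645; 0.0949 with the block). Trem2 in KO TNF and WT TNF overlapped, with a difference of -0.91 ± 0.68 (limma adjusted p = 0.788; 0.161 with the block). As a share of Tyrobp per kilobase, Trem2 was 4.04% and 0.784% in KO TNF cells and 8.42% and 4.45% in KO day 0 cells, and 7.35% and 1.94% in WT TNF cells and 11.8% and 5.92% in WT day 0 cells. The size of this share depends on the merged exon length. That length was 4946 bases for Trem2, with a coding length of 747, and 667 for Tyrobp, with a coding length of 342.

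Of the adaptors, Tyrobp was called in no comparison, and Fcer1g was called after TNF in KO cells with the block. Tyrobp, encoding DAP12 (chr7:30413760-30417585, plus strand), had 404 and 634 CPM in KO TNF cells, 473 and 686 CPM in KO day 0 cells, 395 and 514 CPM in WT TNF cells and 376 and 525 CPM in WT day 0 cells. All groups overlapped, and replicate 2 was higher in each. Its difference after TNF was -0.17 ± 0.36 in KO cells and 0.02 ± 0.36 in WT cells (limma adjusted p = 0.881 and 1). Fcer1g, encoding the FcR gamma chain (chr1:171229572-171234365, minus strand), had 305 and 410.3 CPM in KO TNF cells, against 551 and 766 CPM in KO day 0 cells. In WT cells Fcer1g had 430.4 and 671 CPM after TNF, against 472 and 564 CPM at day 0. The KO TNF libraries were the lowest of the 8, while the WT groups overlapped. The difference in KO cells was -0.88 ± 0.33 (limma adjusted p = 0.212), called as a fall with the block (adjusted p = 0.0132; 0.0132 to 0.413 over 10 alternatives). That call was lost without KO TNF replicate 2 (adjusted p = 0.0716) or KO day 0 replicate 1 (0.0776) or 2 (0.107). The WT difference was 0.06 ± 0.33 (limma adjusted p = 0.998; 0.854 with the block), and KO TNF against WT TNF gave -0.60 ± 0.33 (0.617; 0.0759 with the block). The ratio of Tyrobp to Fcer1g per kilobase was 1.73 and 2.02 in KO TNF cells and 1.12 and 1.17 in KO day 0 cells, and 1.202 and 1.003 in WT TNF cells and 1.04 and 1.22 in WT day 0 cells.

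The activating Fc gamma receptors bind the Fc part of IgG and signal through the FcR gamma chain. Fcgr1, encoding the high-affinity receptor (chr3:96282909-96293969, minus strand), had the steepest fall. It had 5.17 and 5.96 CPM in KO TNF cells, against 167 and 439.8 CPM in KO day 0 cells. In WT cells it had 12.5 and 43.2 CPM after TNF, against 149 and 331 CPM at day 0. The TNF groups did not overlap with day 0 or with each other, and KO TNF was the lowest. By the ratio of mean CPM, Fcgr1 was 54.5 times lower in KO TNF than in KO day 0, and 8.63 times lower in WT TNF than in WT day 0. The fall in KO cells was -5.49 ± 0.73 on the log2 scale, called without and with the block (limma adjusted p = 0.0135; 0.000638 with the block) and by each of 10 alternatives, those with a library left out aside. The WT difference was -3.23 ± 0.73 (limma adjusted p = 0.111; 0.00446 with the block, and 0.00446 to 0.223 over 10 alternatives), a call with the block that no left-out library removed. KO TNF against WT TNF gave -1.97 ± 0.73 (limma adjusted p = 0.373; 0.0276 with the block, and 0.0276 to 0.593 over 10 alternatives). That call was lost without KO TNF replicate 2 (adjusted p = 0.111), KO day 0 replicate 1 (0.0525) or 2 (0.0528) or WT TNF replicate 2 (0.21), and the unblocked call in KO cells without KO TNF replicate 1 (0.0587) or 2 (0.0819) or KO day 0 replicate 2 (0.0826). The difference between the responses was -2.26 ± 1.03 (limma adjusted p = 0.924; 0.122 with the block).

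Fcgr3, encoding a low-affinity activating receptor (chr1:171051174-171064935, minus strand), had 97.7 and 96.8 CPM in KO TNF cells, against 386 and 535 CPM in KO day 0 cells. In WT cells it had 209.5 and 279 CPM after TNF, against 426 and 616 CPM at day 0. Every TNF library lay below every day 0 library, and both KO TNF libraries lay below both WT TNF libraries. Fcgr3 fell after TNF in KO cells by 2.22 on the log2 scale, with a standard error of 0.30 (limma adjusted p = 0.0142; 0.00111 with the block). The WT difference was -1.08 ± 0.30 (limma adjusted p = 0.188; 0.0175 with the block, and 0.0175 to 0.396 over 10 alternatives). KO TNF against WT TNF gave -1.31 ± 0.30 (limma adjusted p = 0.194; 0.0201 with the block, and 0.0201 to 0.546 over 10 alternatives). With the block, the WT call was lost without WT TNF replicate 1 (adjusted p = 0.084) or 2 (0.117) or WT day 0 replicate 2 (0.133), and the genotype call without KO TNF replicate 2 (0.111) or WT TNF replicate 1 (0.0543) or 2 (0.166). Without the block, the call in KO cells was lost without KO TNF replicate 1 (adjusted p = 0.0621) or 2 (0.0991) or KO day 0 replicate 1 (0.0522) or 2 (0.1). Of the 50-base words in Fcgr3 exons, 9.58% also occur in Fcgr2b (166 words, 2.92% of those in Fcgr2b), and how such shared reads were counted is not stated, so both genes are uncertain to that extent. Fcgr1 and Fcgr4 shared 0 such words with each other or with these receptors.

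Fcgr4, encoding an activating receptor of intermediate affinity in the mouse (chr1:171018920-171029761, plus strand), had its highest values in KO day 0 and its lowest in KO TNF. It had 12.6 and 13.9 CPM in KO TNF cells, against 48.1 and 117 CPM in KO day 0 cells. In WT cells Fcgr4 had 14.4 and 43.3 CPM after TNF, against 27.6 and 43.9 CPM at day 0. KO TNF lay below and KO day 0 lay above all other groups, while the WT groups overlapped. The difference in KO cells was -2.46 ± 0.63 (limma adjusted p = 0.0799), called as a fall with the block (adjusted p = 0.00458; 0.00458 to 0.121 over 10 alternatives), and no left-out library removed that call. The WT difference was -0.46 ± 0.63 (limma adjusted p = 0.941; 0.42 with the block). KO day 0 against WT day 0 gave 1.10 ± 0.63 (limma adjusted p = 1; 0.651 with the block), and KO TNF against WT TNF -0.90 ± 0.63 (0.75; 0.149 with the block).

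Fcgr2b, encoding the inhibitory receptor whose ITIM is shown above (chr1:170958617-170976547, minus strand), moved with the replicate number more than with the groups. It had 40.1 and 183 CPM in KO TNF cells, against 26.8 and 324 CPM in KO day 0 cells. In WT cells Fcgr2b had 101 and 296 CPM after TNF, against 42.2 and 254 CPM at day 0. All groups overlapped. Replicate 2 was higher than replicate 1 by 4.57 times in KO TNF, 12.1 in KO day 0, 2.92 in WT TNF and 6.02 in WT day 0. The stromal marker sum also moved with the number, being lower in replicate 2, and its part was not tested. The TNF difference was -0.13 ± 1.43 in KO cells and 0.74 ± 1.43 in WT cells (limma adjusted p = 0.982 and 0.974; 0.853 and 0.316 with the block). In KO cells its 2 replicates went opposite ways, by 0.57 in replicate 1 and -0.82 in replicate 2 on the log2 scale. Its exons overlap 155 bases of the antisense gene Gm38204, whose reads cannot be told apart where counting ignored strand.

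**Figure D3:**
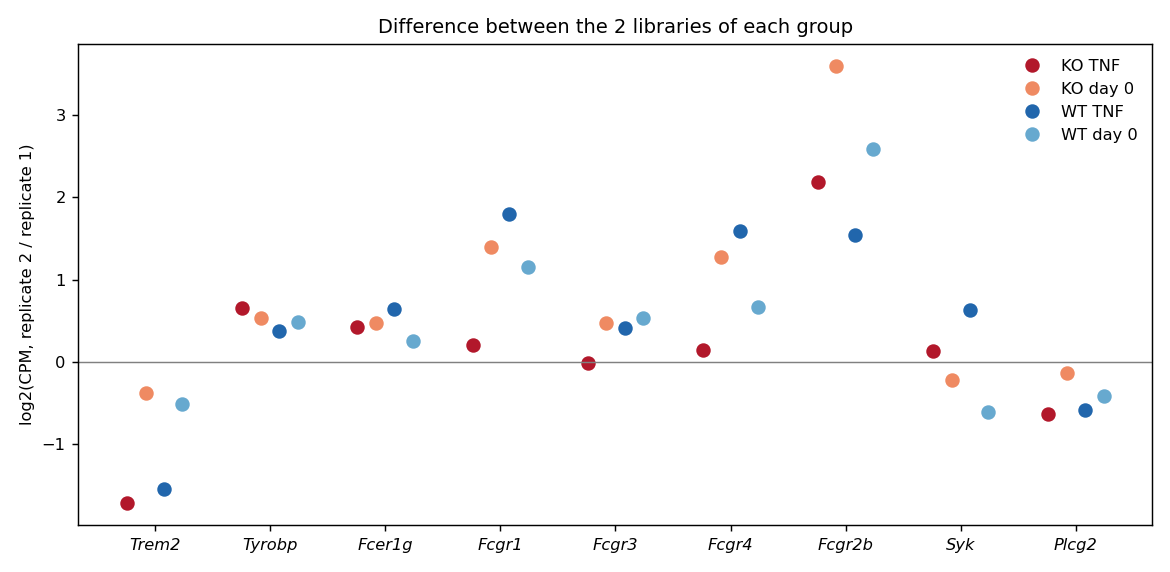
Log2 ratio of CPM in replicate 2 to replicate 1 (vertical axis) for 9 of the genes in each group; Oscar is left out because it was at 0 in 1 library. Points above 0 are higher in replicate 2. Fcgr2b is above 1 in all 4 groups, Trem2 and Plcg2 are below 0 in all 4, and Tyrobp, Fcer1g, Fcgr1 and Fcgr4 are above 0 in all 4.

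Set against each other per kilobase, the summed activating receptors (Fcgr1, Fcgr3 and Fcgr4) exceeded Fcgr2b by less after TNF within each replicate. The ratio was 9.87 and 2.19 in KO TNF cells, against 70.2 and 10.2 in KO day 0 cells. In WT cells it was 7.83 and 4.14 after TNF, against 44.5 and 11.8 at day 0. The size of the ratio depends on the exon length, which was longest for Fcgr2b (5790 bases). By CPM without division by length, it was 2.88 and 0.637 in KO TNF and 22.4 and 3.37 in KO day 0 cells. In WT cells the CPM ratio was 2.33 and 1.23 after TNF, against 14.3 and 3.90 at day 0. By CPM, Fcgr2b thus exceeded the activating sum in KO TNF replicate 2. KO TNF replicate 2 had the lowest ratio of the 8 libraries. Replicate 1 had the higher ratio in every group. Fcgr1 made up 2.66% and 2.28% of the 4 receptors per kilobase in KO TNF cells and 19.6% and 27.1% in KO day 0 cells. The Fcgr1 share was 3.11% and 6.34% in WT TNF cells and 17.4% and 22.8% in WT day 0 cells. The Fcgr2b share was 9.20% and 31.4% in KO TNF cells and 1.41% and 8.93% in KO day 0 cells, and 11.3% and 19.4% in WT TNF cells and 2.20% and 7.81% in WT day 0 cells. Summed over the 4 receptors, the level was 75.2 and 101 CPM per kb in KO TNF cells and 329 and 627 in KO day 0 cells, and 155 and 263 in WT TNF cells and 332 and 562 in WT day 0 cells. These ratios are a description and were not tested.

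**Figure D4:**
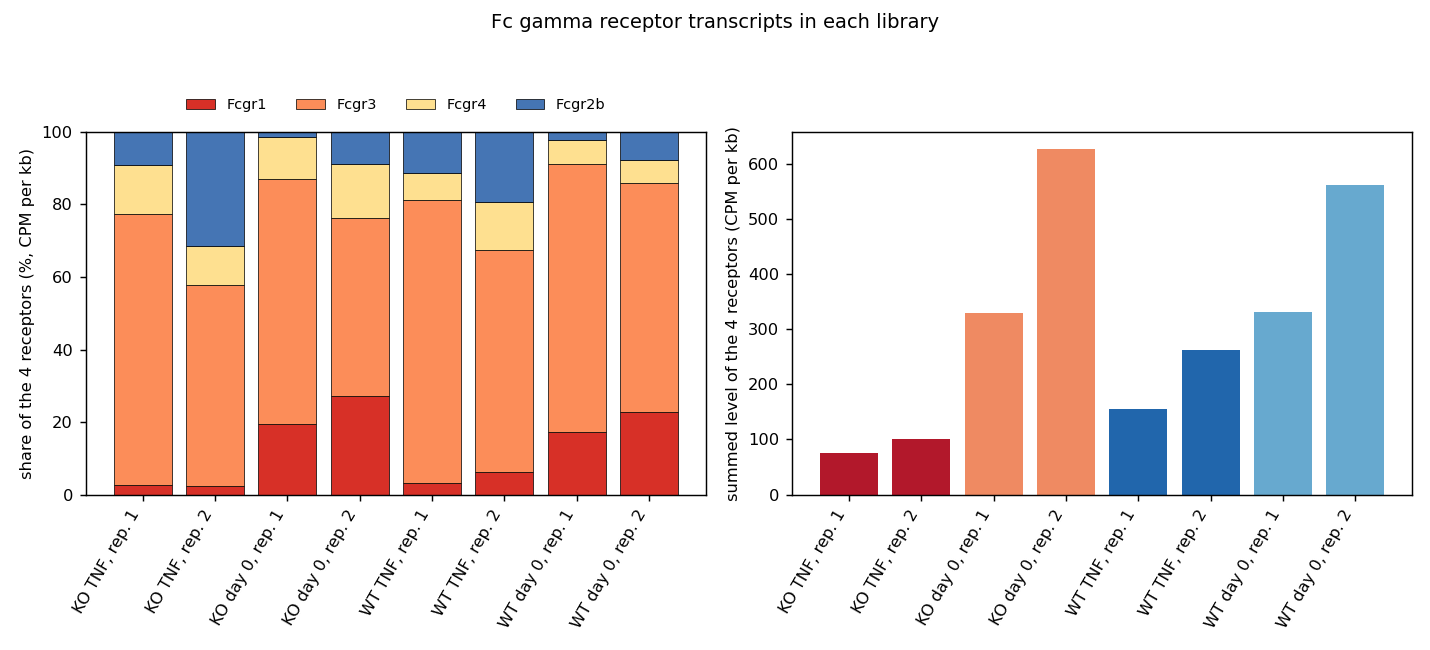
Left, share of each of 4 Fc gamma receptors in their summed CPM per kb, in percent; right, that sum in CPM per kb, for each library of KO TNF, KO day 0, WT TNF and WT day 0. Fcgr3 is the largest share in every library, the Fcgr1 share is under 7% in the TNF libraries and over 17% at day 0, and the sum is lowest in KO TNF (75.2 and 101 CPM per kb).

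Downstream of the receptors, Syk values were higher and Plcg2 values lower after TNF. Syk, the tyrosine kinase that docks on phosphorylated ITAMs (chr13:52583173-52648792, plus strand), had 664 and 726 CPM in KO TNF cells, against 407 and 350.5 CPM in KO day 0 cells. In WT cells Syk had 531 and 823 CPM after TNF, against 360.1 and 236 CPM at day 0. Every TNF library lay above every day 0 library, and the genotypes overlapped. The differences were 0.88 ± 0.33 in KO cells and 1.18 ± 0.33 in WT cells (limma adjusted p = 0.202 and 0.185; 0.0717 and 0.0539 with the block), so neither was called, although DESeq2 called the WT difference (adjusted p = 0.0274; 0.0274 to 0.382 over 10 alternatives). Plcg2, the phospholipase that produces the calcium-releasing messenger (chr8:117498291-117635142, plus strand), had 215 and 139 CPM in KO TNF cells, against 289 and 264 CPM in KO day 0 cells. In WT cells Plcg2 had 227 and 152 CPM after TNF, against 255 and 191 CPM at day 0. KO TNF lay below KO day 0, and the WT groups overlapped. Replicate 2 was the lower one in every group. The difference in KO cells was -0.68 ± 0.33 (limma adjusted p = 0.334), called as a fall with the block (adjusted p = 0.0324; 0.0324 to 0.413 over 10 alternatives). That call was lost without KO TNF replicate 1 (adjusted p = 0.0514) or 2 (0.179), KO day 0 replicate 1 (0.0566) or 2 (0.254), or WT TNF replicate 1 (0.0521) or 2 (0.0524). The WT difference was -0.24 ± 0.33 (limma adjusted p = 0.939; 0.401 with the block).

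Around the members, 85 further genes of the pathway were listed in 6 groups by role, of which 84 were in the table and 75 were tested. At day 0, and for the difference between the TNF responses, 0 of the 75 were called by limma with or without the block (8 and 11 at an unadjusted p under 0.05 without it, 15 and 28 with it). In the order in which the groups are named below, the median log2 difference after TNF was -0.15, -0.61, -0.26, -0.19, -0.10 and -1.23 in KO cells, and 1.17, 0.14, -0.46, -0.01, -0.25 and -0.37 in WT cells. After TNF, limma called 8 of the 75 in KO and 3 in WT cells without the block, beside 5.1% and 1.18% of all genes tested. With the block it called 25 and 18 of the 75, beside 25.9% and 10.3% of all genes. The counts per group below are to be read against these shares, and no group was tested as a set. The list of receptors that pair with the same adaptors, which also held Clec7a, had 15 tested genes. Of these, 1 rose and 1 fell after TNF in KO cells without the block (2 and 3 with it). In WT cells 1 rose (6 with the block, among them Clec7a at 2.78 ± 0.32, limma adjusted p = 0.00532). Clec4e, the receptor Mincle, rose in both genotypes, by 5.36 ± 0.67 in KO and 6.61 ± 0.67 in WT cells (limma adjusted p = 0.0111 and 0.0173), and Cd300lb fell in KO cells (-1.76 ± 0.25, 0.0158). With the block, 4 of these receptors were lower in KO TNF than in WT TNF, namely Clec4d (-1.74), Clec4e (-1.71), Cd300ld (-1.12) and Cd300lb (-1.09). Of 16 ITIM receptors and phosphatases, 2 fell after TNF in KO cells, Cd300lf (-4.13 ± 0.80) and Cd300a (-2.02 ± 0.37; limma adjusted p = 0.0387 and 0.0331). With the block Inpp5d, the phosphatase SHIP1 that acts below the Fcgr2b ITIM, was also lower after TNF in KO cells (-0.95 ± 0.18, limma adjusted p = 0.0122), among 4 in all, and in WT cells 1 rose (Pirb) and 1 fell (Cd300a).

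Of 8 tested kinases, of the Src and Tec families and Csk, Src rose in both genotypes. The rise was 5.85 ± 0.76 in KO and 5.37 ± 0.76 in WT cells (limma adjusted p = 0.0129 and 0.0376). No other kinase was called without the block. With the block, 2 rose and 3 fell in KO cells, where Lyn (-1.09), Fyn (-1.48) and Csk (-0.89) were the lower ones, and 3 rose and 2 fell in WT cells. Of 16 adaptors, exchange factors and ubiquitin ligases below Syk, 1 rose in KO cells, the scaffold Lat (2.84 ± 0.44, limma adjusted p = 0.0206). Lat rose from a low level, with 12.5 and 7.44 CPM in KO TNF cells, against 0.75 and 1.11 CPM in KO day 0 cells. With the block 2 rose and 4 fell in KO cells, and 2 rose and 1 fell in WT cells. Of 15 genes of the calcium arm, 1 rose in KO cells, Nfatc1, the transcription factor that calcineurin activates (3.69 ± 0.38, limma adjusted p = 0.00717). With the block Creb1 (-0.65) and Nfatc2 (-2.26) fell in KO cells, and Prkcd rose in WT cells (1.42). Also with the block, Nfatc1 was higher in KO TNF than in WT TNF (2.42 ± 0.35, limma adjusted p = 0.0203) and Prkcd was lower (-0.93 ± 0.21, 0.0438). Of 5 other Fc receptors tested, Fcrls fell in both genotypes (-8.62 ± 0.32 in KO and -6.52 ± 0.32 in WT cells, limma adjusted p = 0.000322 and 0.00198), and with the block Trim21, a cytosolic Fc receptor, fell in KO cells (-1.59 ± 0.23, limma adjusted p = 0.00502). For KO TNF against WT TNF, 0 of the 75 were called by limma without the block (13 at an unadjusted p under 0.05). With it 11 of the 75 were called, beside 9.28% of all genes tested. Among the genes below Syk, Lat was higher in KO TNF than in WT TNF (1.69), and Cbl (-0.84) and Blnk (-0.87) were lower. In the same comparison 1 ITIM gene and 1 other Fc receptor were lower, and 0 kinases were called.

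For 9 of the 10 members, the gene with the most similar profile was taken as the one with the smallest root mean square distance between centred log2(CPM + 0.5) values over the 8 libraries, among 10474 genes. It was Tmem106a for Fcgr3 (0.18), Themis2 for Fcgr4 (0.27), Samd9l for Fcgr2b (0.47), Myo1d for Oscar (0.44), Dpy19l3 for Trem2 (0.09), Golga1 for Tyrobp (0.07), Lipa for Fcer1g (0.10), Ptpn1 for Syk (0.16) and Elmod3 for Plcg2 (0.08). For the Oscar profile, Myo1d had 443 and 1327 CPM in KO TNF cells and 4.22 and 5.78 CPM in KO day 0 cells, and 52.1 and 54.8 CPM in WT TNF cells and 2.84 and 2.82 CPM in WT day 0 cells. Among the members, Tyrobp and Fcer1g were nearest to each other (0.34), as were Fcgr3 and Fcgr4 (0.60). The nearest member to Fcgr1 was Fcgr3 (1.45), and the nearest to Oscar was Syk (2.61), so these profiles stood further from the others.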

How the data were processed

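Poly-A RNA of 8 libraries of mouse bone marrow macrophages, 2 in each of 4 groups, was sequenced. The authors deposited CPM values per gene symbol, made with fastp, HISAT2, HTSeq and edgeR on build mm10, per the submitters' processing notes; versions, annotation and the use of strand are not given in the sources used here. All CPM were whole multiples of 1 read (100% within 0.01), so reads were recovered for the count tests. Replicate libraries differed beyond sampling noise, so all 8 were kept apart.

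The 12194 of 24421 genes that reached 1 CPM in 2 or more libraries were fitted with limma (3.58.1, R 4.3.3; lmFit, eBayes with trend, 2-sided) on log2(CPM + 0.5), with group as the only term and all 8 libraries, and Benjamini-Hochberg adjusted over all genes of each contrast. Log2 differences are on that scale, and changes of low genes are understated there; ± after them is the moderated standard error, and ± after a CPM level is the SD. Levels per kilobase use the merged exon length of GENCODE M21. Alternatives were edgeR 4.0.16 (quasi-likelihood) and DESeq2 1.42.0 on the recovered reads, other pseudocounts, scalings and filters, only the 4 libraries of a contrast, and each library left out.

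The replicate numbers were taken as pairing the libraries: the design states 2 independent experiments, and deviations from the group means of same-numbered libraries correlated in all 6 pairs of groups (r between 0.577 and 0.805 by Pearson; genes are not independent replicates). The second principal component separated the numbers. The fit with the replicate block leaves 3 residual degrees of freedom, against 4 without it. The members and lists were chosen with earlier results of these data known. Named were all members, up to 4 called genes of each pathway list and contrast (or the 2 with the largest difference), and for each member the gene nearest in profile; some of the genes this allowed are not reported here.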

Additional observations from a re-analysis of the deposited data

Results flagged for a closer look

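Fcgr4 lay lower in both KO TNF libraries (12.6 and 13.9 CPM) than in both WT TNF libraries (14.4 and 43.3 CPM), and higher in both KO day 0 libraries (48.1 and 117 CPM) than in both WT day 0 libraries (27.6 and 43.9 CPM). It is listed because the genotypes differed in opposite directions at the 2 times. The difference itself, the TNF response in KO minus that in WT cells, was -2.00 on the log2 scale and was tested: limma gave an adjusted p of 0.921 without the replicate block and 0.134 with it, and from 0.134 to 0.99 over 9 alternatives, so it was not called.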

How the results depend on the processing

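With the replicate block, the number of members called moved to 7 for TNF in KO cells and to 3 each for TNF in WT cells and for KO TNF against WT TNF, beside 3, 0 and 0 without it; other calls did not change. edgeR with the block gave the same counts of 7, 3 and 3 (25.2%, 9.54% and 6.65% of all genes). DESeq2 gave 5, 3 and 2 (13.9%, 7.17% and 5.06%). Fitting only the 4 libraries of a contrast left 1 member called for TNF in KO cells (0.582% of all genes), and gives no value for the difference between responses. Leaving out each library in turn leaves a single library in 1 group. Without or with the block, fewer members were then called for TNF in KO cells whenever a KO library was left out. The members called also moved for TNF in WT cells, and with the block for KO TNF against WT TNF and for the difference between responses. The number of all genes called moved in these fits as well, so the moves are not particular to the members. Other scalings, pseudocounts and filters, and edgeR without the block, gave the same counts of members as the limma fit without the block.

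The sign of differences that were not called turned in some alternatives. Syk in KO TNF against WT TNF became -0.036 by edgeR, -0.020 by edgeR with the block and -0.041 by DESeq2, and Fcgr2b at day 0, KO against WT, became 0.26 by edgeR and 0.27 by DESeq2. Leaving out each library, Fcgr2b ranged from -1.91 to 1.66 for TNF in KO cells, -0.55 to 2.02 in WT cells, -2.10 to 0.079 for KO TNF against WT TNF, -1.93 to 1.64 at day 0 and -2.65 to 0.92 for the difference between responses. Tyrobp ranged from -0.50 to 0.15 for TNF in KO cells, -0.22 to 0.26 in WT cells, -0.16 to 0.49 for KO TNF against WT TNF and -0.52 to 0.13 for the difference between responses. For TNF in WT cells, Fcer1g ranged from -0.26 to 0.38, Fcgr4 from -1.24 to 0.31 and Plcg2 from -0.53 to 0.044. For KO TNF against WT TNF, Plcg2 ranged from -0.42 to 0.21 and Syk from -0.25 to 0.38. At day 0, KO against WT, Fcgr1 ranged from -0.41 to 0.98, Fcgr3 from -0.44 to 0.093 and Trem2 from -0.34 to 0.17. For the difference between responses, Syk ranged from -0.62 to 0.012 and Trem2 from -1.67 to 0.028. The cause was not tested. With 2 libraries a group, and the depth of Oscar at day 0 at 10 reads or fewer, small differences could not be resolved.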
